A study of Mus musculus with 6 samples.

Results

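The genes described here belong to the protein-folding machinery of the endoplasmic reticulum (ER) and to the unfolded protein response that adjusts it. They are 10 of the 27506 genes in the count table, taken by gene symbol, and all 10 passed the filter on low counts. The list was chosen with earlier results of these data known. Hspa5, Hsp90b1, Calr, Pdia4 and Dnajb9 encode chaperones and folding enzymes of the ER lumen. Xbp1, Atf4 and Ddit3 encode transcription factors of the response. Trib3 and Herpud1 encode proteins that act in its feedback and in the removal of misfolded proteins.

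RNA-seq was performed on dental pulp of the mandibular first molar from C57BL/6 mice at 3.5 days after birth, with 3 control libraries (Ror2fl/fl) and 3 mutant libraries (Osr2-Cre;Ror2fl/fl). By the genotype labels, every mouse carried floxed alleles of Ror2, a Wnt receptor, and only the mutant mice carried Osr2-Cre. Osr2-Cre acts in the dental mesenchyme and alveolar bone and leaves Ror2 in place in the dental epithelium. By the same labels, neither Osr2-Cre mice without floxed alleles nor wild-type mice were compared here. The names carry the code WW for control library 1, OW for control libraries 2 and 3 and OR for the mutant libraries. The labels do not explain these codes. The labels do not say whether each library came from 1 animal or from pooled animals, so the p-values measure the spread between these libraries.

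Proteins that are secreted or placed in membranes fold in the ER, where chaperones hold them until they are correctly shaped. When unfolded proteins build up, the sensors IRE1, PERK and ATF6 act through XBP1, ATF4 and the cut form of ATF6, which raise the transcription of chaperones and of genes for the degradation of failed proteins. Odontoblasts and ameloblasts secrete the collagen-rich matrix of dentin and the matrix of enamel, so both pass large amounts of protein through the ER. XBP1 is activated by splicing of its mRNA and ATF4 by a change in translation, and neither step is seen in counts per gene.

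RefSeq promoters (GRCm38.p6, 250 bases before to 50 bases after the annotated start) were matched for all 10 genes, and stretches holding a named element of the response are shown because these elements group the genes by how their promoters read. The ER stress response element ERSE, bound by ATF6 and XBP1 together with NF-Y, was searched on both strands as CCAAT and CCACG with 9 bases of any kind between them. It was found in 39 of 32851 RefSeq promoters (0.119%) and in 3 of the 5 chaperone promoters. The counts for this element and those below are descriptions and no test of enrichment, since the elements were already named for this response. In the following lines, written 5′ to 3′ along the gene, capitals mark the match, which reads CCAAT to CCACG where it lies on the strand of the gene and CGTGG to ATTGG where it lies on the other strand.
Hspa5, chr2:34772010-34772058, plus strand: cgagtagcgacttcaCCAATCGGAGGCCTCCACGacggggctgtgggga
Hsp90b1, chr10:86705518-86705671, minus strand: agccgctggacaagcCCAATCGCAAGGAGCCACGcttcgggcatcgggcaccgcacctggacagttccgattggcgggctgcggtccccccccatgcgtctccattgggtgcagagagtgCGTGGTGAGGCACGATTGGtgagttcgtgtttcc
Calr, chr8:84847060-84847108, minus strand: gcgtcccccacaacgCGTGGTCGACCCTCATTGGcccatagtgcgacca
Hspa5 held its ERSE from 65 to 47 bases before the start. Hsp90b1 held a copy on each strand, and Calr held 1 copy on the strand opposite to the gene.

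A related element, ERSE-II, was searched as ATTGG and CCACG with 1 base between them and was found in 12 of the 32851 promoters (0.0365%). Herpud1 was the 1 gene of the 10 that held it, from 52 to 42 bases before its start, and the match is shown in capitals.
Herpud1, chr8:94386362-94386402, plus strand: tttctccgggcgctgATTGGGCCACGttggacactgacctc
The C/EBP-ATF element CARE, at which ATF4 acts, was searched as TGATGNAAN and is short enough to be found in 3.95% of all promoters. It was found in Trib3 and Herpud1, on the strand opposite to the gene in both. The XBP1 element UPRE, searched as TGACGTGG, was found in 0.676% of all promoters and in none of the 10. Pdia4, Dnajb9, Xbp1, Atf4 and Ddit3 held no match to these 4 sets of letters in this window, which says nothing about more distant sequence or about binding. No match of 1 element overlapped a match of another.

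**Figure D1:**
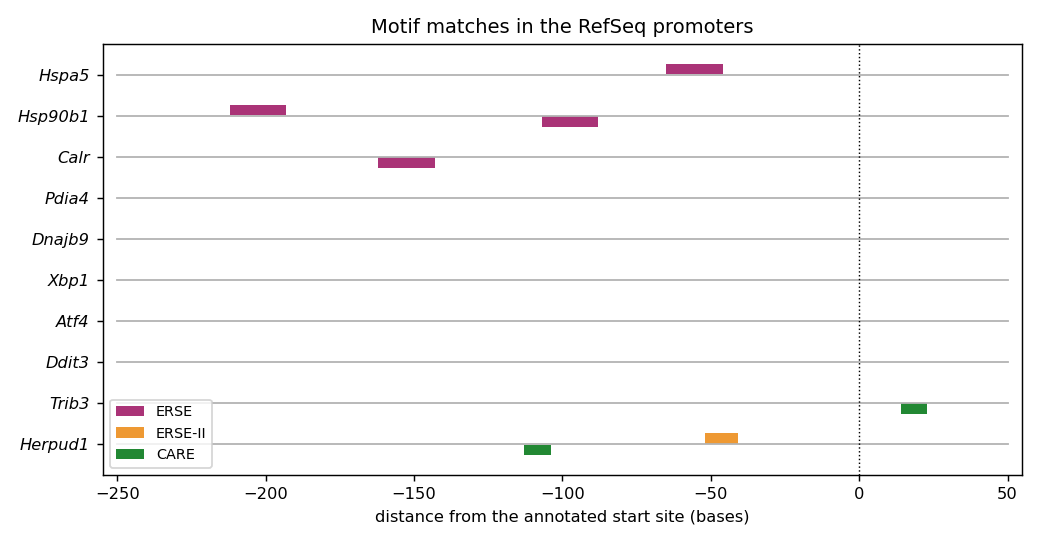
Positions of ERSE, ERSE-II and CARE matches (coloured bars, above the line for the strand of the gene and below it for the other strand) in the RefSeq promoter of each of the 10 genes, against distance from the annotated start in bases. ERSE lies in Hspa5, Hsp90b1 and Calr, ERSE-II in Herpud1, and CARE in Trib3 and Herpud1.

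The libraries held 56134770 to 62628940 estimated counts. Ror2 was measured at 38.2, 36.2 and 36.7 CPM (counts relative to library size after scaling by edgeR's TMM factors) in the control libraries and at 27.9, 28.1 and 26.3 CPM in the mutant libraries, a log2 fold change of -0.43 (adjusted p = 0.0134 by edgeR's quasi-likelihood test, adjusted over all genes by the Benjamini-Hochberg method). This call was lost without control library 2, without control library 3 and with a replicate block, where the adjusted p reached 0.0752 at most. The mutant libraries differed more among themselves than the control libraries did. The root mean square log2 difference over genes was 0.515 to 0.684 between mutant libraries and 0.361 to 0.461 between control libraries, with mutant library 2 the farthest from the others. Enamel genes were abundant in tissue labelled dental pulp: the 10 markers of ameloblasts and dental epithelium summed to 172337 to 192981 CPM in controls and 185541 to 256052 CPM in mutants, and none was at 0. The 8 odontoblast markers summed to 21056 to 61324 CPM in controls and 18317 to 48086 CPM in mutants, and neither of these lists held a called gene. All 6 markers of skeletal muscle fell, from 10.4 to 35.9 CPM in sum in controls to at most 3.49 CPM in mutants, and 2 of 5 erythroid markers (Hba-a1 and Alas2) fell as well. In bulk tissue, fewer cells of a type and less RNA per cell cannot be told apart, and the part of these shifts in the values below was not tested. The library names carry different number series in controls and mutants, while the same sample indices occur in both groups. The labels do not say what the series stand for and name no batch. A batch that followed the genotype cannot be told apart from it.

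In TPM computed here, which also divide each count by exonic length, the 10 genes spanned a wide range in the control libraries. Calr, a calcium-binding chaperone of glycoproteins, had the highest level, 547 ± 38.3 TPM (SD, n = 3), above 99.2% of the 19330 genes tested. It was followed by Hspa5 (317 TPM), Hsp90b1 (271 TPM) and Pdia4 (175 TPM), and then by the transcription factors Xbp1 (155 TPM) and Atf4 (91.3 TPM). Dnajb9 (48.1 TPM), Herpud1 (23.5 TPM) and Ddit3 (9.21 TPM) were lower, and Trib3 was near the limit of detection at 0.496 ± 0.193 TPM, with 16 to 39 counts per library. No neighbours in this order overlapped between the 3 control libraries. In the mutant libraries the first 3 places were kept by Calr (415 TPM), Hspa5 (209 TPM) and Hsp90b1 (182 TPM), while Xbp1 (135 TPM) and Atf4 (123 TPM) had higher mean levels than Pdia4 (110 ± 38.9 TPM). The TPM of Pdia4 spanned those of both transcription factors, being below them in mutant libraries 1 and 2 and above them in mutant library 3.

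The comparison of mutant with control pulp asked how these genes stood after loss of Ror2 in the dental mesenchyme. Atf4 was higher in the mutant libraries, and no other member passed the test. The 4 abundant chaperones were lower than every control in mutant libraries 1 and 2 and close to or above the controls in mutant library 3, while Xbp1 differed little. Of the 10 genes, 1 was called (adjusted p under 0.05), against 20.2% of all genes tested. It was higher in the mutant, against 10.4% of all genes called higher, and 0 of the 10 were called lower, against 9.84% of all genes. At an unadjusted p under 0.05, 3 of the 10 passed (Atf4, Ddit3 and Pdia4), against 38.3% of all genes. The groups did not overlap for 3 of the 10 (Atf4, Ddit3 and Hspa5), against 44.7% of all genes. The median log2 fold change of the 10 genes was -0.15, beside 0.01 over all genes tested.

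**Figure D2:**
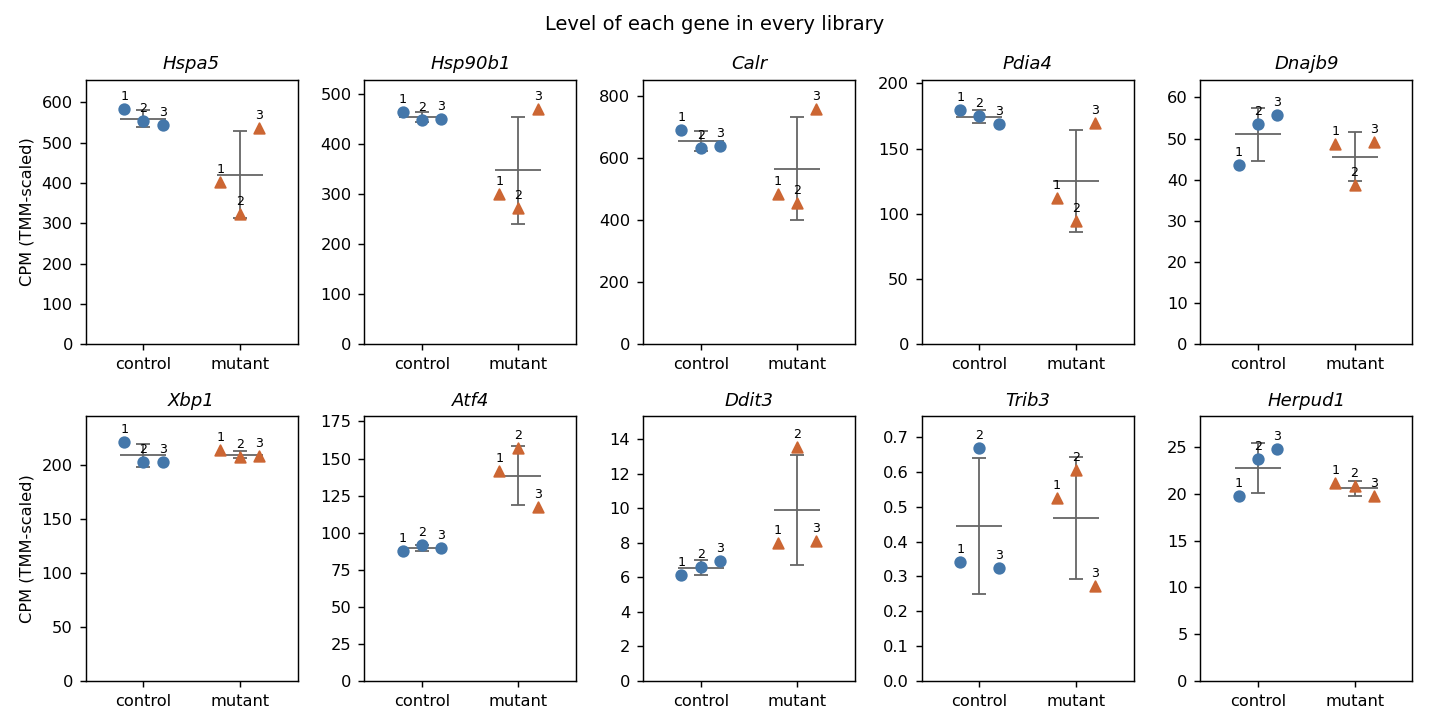
Level of each of the 10 genes in TMM-scaled CPM in the 3 control libraries (circles) and the 3 mutant libraries (triangles), numbered by replicate, with the mean (horizontal line) and SD (error bar) of each group and axes that start at 0. Hspa5, Hsp90b1, Calr and Pdia4 are low in mutant libraries 1 and 2, Atf4 and Ddit3 are above every control in all 3 mutant libraries, and Xbp1 lies between 203 and 222 CPM throughout.

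Hspa5 (chr2:34771970-34777547, plus strand in GENCODE M21 on mm10, as are the other loci below) encodes BiP, the HSP70-type chaperone of the ER that also binds the stress sensors. It was measured at 583, 553 and 543 CPM in the control libraries and at 401, 324 and 537 CPM in the mutant libraries. All mutant libraries were below all controls, but mutant library 3 was close to the lowest control. Fitted over all 6 libraries, its log2 fold change was -0.41 (95% interval -0.83 to 0.00) with an adjusted p of 0.133. Not overlapping in this direction was common, since 22.1% of all genes tested had every mutant library below every control.

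Hsp90b1 (chr10:86690209-86705509, minus strand) encodes GRP94, the HSP90-type chaperone of the ER. Its levels were 465, 448 and 450 CPM in controls and 300, 273 and 469 CPM in mutants, so that mutant library 3 was above every control. On the log2 scale, Hsp90b1 differed by -0.39 (95% interval -0.84 to 0.07, adjusted p = 0.187). Exons of a pseudogene on the opposite strand, 1810014B01Rik, cover part of Hsp90b1, and 6.73% of its stretches of 75 bases, the read length, occur in other annotated genes. Summing Hsp90b1 with 1810014B01Rik alone gave a log2 fold change of -0.40.

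Calr (chr8:84841850-84846934, minus strand) was measured at 692, 634 and 641 CPM in controls and at 485, 456 and 758 CPM in mutants. Here mutant library 3 had the highest level of all 6 libraries. Its log2 fold change was -0.21 (95% interval -0.66 to 0.24, adjusted p = 0.458).

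Pdia4 (chr6:47796141-47813430, minus strand) encodes a protein disulfide isomerase, which forms and rearranges disulfide bonds. Its levels were 179, 175 and 169 CPM in controls and 112, 94.2 and 169 CPM in mutants. Mutant libraries 1 and 2 were at 64.3% and 54.0% of the control mean, and mutant library 3 at 97.1%. Its log2 fold change, -0.48 (95% interval -0.93 to -0.02), was the most negative of the 10 and had an adjusted p of 0.116.

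Hsp90b1, Calr and Pdia4 thus shared an arrangement in which mutant libraries 1 and 2 were below every control and mutant library 3 was not. The arrangement was defined after it was seen in these 3 genes, so their count is a description and is set beside its share of 6.78% among all genes tested only for scale. Proportions among the chaperones were also compared. The ratio of Hspa5 to Hsp90b1 in CPM was 1.21 to 1.25 in controls and 1.14 to 1.34 in mutants, and that of Hspa5 to Pdia4 was 3.16 to 3.25 in controls and 3.17 to 3.57 in mutants, so that both ranges overlapped. The ratio of Hspa5 to Calr was 0.842 to 0.872 in controls and 0.708 to 0.826 in mutants, below every control in each mutant library.

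Dnajb9 (chr12:44205559-44210326, minus strand) encodes ERdj4, a co-chaperone of BiP that is a target of XBP1. It did not share the arrangement, with 43.6, 53.6 and 55.8 CPM in controls and 48.7, 38.7 and 49.2 CPM in mutants. The groups overlapped, and control library 1 was below mutant libraries 1 and 3. For Dnajb9 the log2 fold change was -0.16 (95% interval -0.47 to 0.14, adjusted p = 0.397). Of its 75-base stretches, 2.55% also occur in the pseudogene Gm6568.

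The calls for the chaperones depended on mutant library 3. Without it, 5 of the 10 genes were called, against 25.2% of all genes in that fit, and 4 of them were lower, against 12.5%. Pdia4 was then at -0.76 on the log2 scale (adjusted p = 0.00933) and Hsp90b1 at -0.67 (adjusted p = 0.0129). Hspa5 followed at -0.63 (adjusted p = 0.0239) and Calr at -0.48 (adjusted p = 0.0357). Without any other single library, none of these 4 genes was called. The labels give no reason to leave out mutant library 3, and its odontoblast and ameloblast sums (25355 and 214267 CPM) lay between those of the other mutant libraries.

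**Figure D3:**
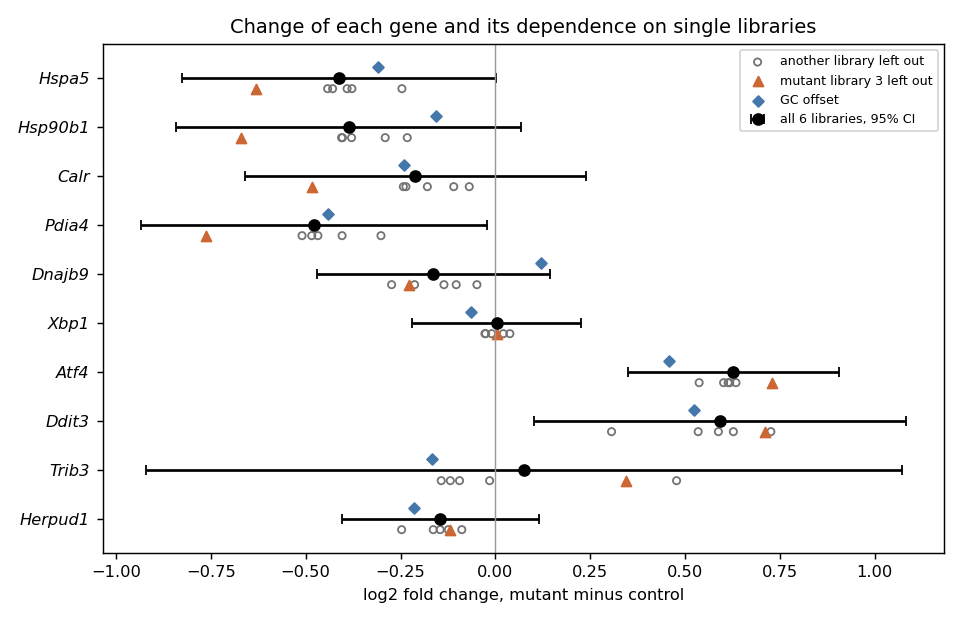
Log2 fold change (mutant minus control) of each of the 10 genes with all 6 libraries (black circles with 95% confidence intervals), with mutant library 3 left out (triangles), with another library left out (open circles) and with an offset for GC content (diamonds). Leaving out mutant library 3 moves Hspa5, Hsp90b1, Calr and Pdia4 to between -0.76 and -0.48, while Atf4 stays above 0 in every fit shown and Dnajb9 changes sign with the offset.

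Among the transcription factors, Atf4 (chr15:80255184-80257541, plus strand) encodes the main effector of PERK and of the other eIF2α kinases, which raises genes of amino acid supply and redox balance. It was measured at 87.7, 91.7 and 89.7 CPM in controls and at 141, 157 and 117 CPM in mutants. Every mutant library was above every control, as in 22.6% of all genes tested, and mutant library 3, the highest for Calr and Hsp90b1, was the lowest of the mutants for Atf4. The log2 fold change was 0.63 (SE 0.12, 95% interval 0.35 to 0.91), which is 54.4% higher, with an adjusted p of 0.0129. A two-sided exact permutation test gave p = 0.1, the smallest value that 3 against 3 libraries allow. The call was lost without control library 2 (log2 fold change 0.63, adjusted p = 0.0659) and without control library 3 (0.62, adjusted p = 0.0714), and with an offset for GC content and a replicate block together (0.45, adjusted p = 0.0788). No 75-base stretch of Atf4 occurs in another annotated gene.

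Ddit3 (chr10:127290774-127296288, plus strand) encodes CHOP, a factor induced by ATF4 under lasting stress. Its levels were 6.12, 6.60 and 6.96 CPM in controls and 7.98, 13.6 and 8.13 CPM in mutants. The groups did not overlap, and mutant library 2 was well above the other two. The log2 fold change was 0.59 (95% interval 0.10 to 1.08), close to that of Atf4, with an adjusted p of 0.0808. DESeq2's Wald test gave an adjusted p of 0.0398, so the call for Ddit3 differed between tools. Without mutant library 2, the log2 fold change was 0.31 (adjusted p = 0.114). The ratio of Ddit3 to Atf4 in CPM was 0.0698 to 0.0776 in controls and 0.0565 to 0.0864 in mutants, so that it overlapped between the groups. Exons of Mars and Gm4189 lie opposite 81 bases of Ddit3, and whether the counting used strand is not given in the sources used here.

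Xbp1 (chr11:5520659-5525893, plus strand) encodes the factor that is spliced by IRE1 and raises chaperone and degradation genes. It was measured at 222, 203 and 204 CPM in controls and at 214, 208 and 208 CPM in mutants. The mutant libraries lay within the range of the controls. The log2 fold change was 0.00 (95% interval -0.22 to 0.23, adjusted p = 0.982), the narrowest interval of the 10.

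Of the feedback and degradation genes, Herpud1 (chr8:94386438-94395377, plus strand) encodes an ER membrane protein that helps to assemble the degradation machinery. Its levels were 19.8, 23.7 and 24.8 CPM in controls and 21.2, 20.9 and 19.7 CPM in mutants. The groups overlapped through control library 1. The log2 fold change was -0.15 (95% interval -0.40 to 0.11, adjusted p = 0.372). Trib3 (chr2:152337422-152344032, minus strand) encodes a pseudokinase induced by ATF4 and CHOP that restrains ATF4. It was measured at 0.342, 0.669 and 0.324 CPM in controls and at 0.524, 0.607 and 0.271 CPM in mutants. The highest value was in control library 2 and the lowest in mutant library 3. Its log2 fold change of 0.07 had an interval from -0.92 to 1.07 (adjusted p = 0.916), so that changes within this interval were not excluded by these libraries.

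Fold changes across all genes varied with base composition. Over 19311 genes, Spearman's rho of the log2 fold change with GC content was 0.34 and with exonic length -0.26, as a description across genes, which are not independent replicates. The median log2 fold change was -0.28 in the fifth of genes with the lowest GC content and 0.22 in the fifth with the highest. Atf4 has a GC content of 55.1% and Hsp90b1 of 42.9%. With an offset for GC content, the log2 fold change of Atf4 was 0.46 (adjusted p = 0.0291) and that of Hsp90b1 was -0.16 (adjusted p = 0.565). Pdia4 moved little, to -0.44, and Hspa5 to -0.31. Dnajb9, at 41.8% GC, changed sign to 0.12 (adjusted p = 0.466). Atf4 was the 1 gene of the 10 called with this offset, against 14.3% of all genes, and it was not called once the replicate block was added to the offset. With the same offset and without mutant library 3, 3 of the 10 were called, against 18.8% of all genes, and 2 were lower, against 8.47%. In that fit, Pdia4 (-0.70, adjusted p = 0.0126) and Calr (-0.50, adjusted p = 0.0453) were called lower, and Hspa5 (-0.50, adjusted p = 0.0551) and Hsp90b1 (-0.39, adjusted p = 0.0721) were not.

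The other genes of the pathway were taken from 6 lists of 137 genes, all of which passed the filter, and 26 were called (19.0%, beside 20.2% of all genes), 10 higher and 16 lower. With the GC offset (14.3% of all genes called in that fit) the split was 10 higher and 6 lower. With library size alone (19.2%) it was 7 and 21, and without control library 2 (4.57%) or control library 3 (4.39%) 3 and 3. The sensors and their proteases held no called gene among 10, and the smallest adjusted p among them was 0.206. Ern1, which encodes IRE1, was at 116 to 144 CPM in controls and 128 to 155 CPM in mutants (log2 fold change 0.14, 95% interval -0.15 to 0.43). Eif2ak3, which encodes PERK, had a log2 fold change of 0.02 (95% interval -0.28 to 0.32), and Atf6 of -0.10 (95% interval -0.47 to 0.26). Creb3l1, a related factor of secretory cells, varied from 68.5 to 124 CPM among controls (log2 fold change 0.03, 95% interval -0.54 to 0.59). The smallest p-values of this list belonged to Creb3l2 (-0.32, adjusted p = 0.206), Mbtps2 (-0.26, adjusted p = 0.253), Ern1 and Creb3 (0.10, adjusted p = 0.482).

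The ER folding list held 7 called genes of 31 (22.6%, beside 20.2% of all genes), 1 higher and 6 lower, and its median log2 fold change was -0.17. Uggt2, of the family that senses misfolded glycoproteins, fell from 14.3, 18.6 and 16.5 CPM to 10.1, 7.52 and 8.61 CPM (log2 fold change -0.92, adjusted p = 0.00737). Ero1l, an oxidase that drives disulfide formation, fell as well (-0.55, adjusted p = 0.0117). Pdia6, a disulfide isomerase with an ERSE, fell (-0.68, adjusted p = 0.0308), and Dnajc3, a co-chaperone of BiP with an ERSE, fell too (-0.64, adjusted p = 0.0440). Dnajc10, a disulfide reductase that works with BiP (-0.47, adjusted p = 0.0157), and Erp44, which retains unassembled proteins (-0.48, adjusted p = 0.0415), also fell. Sdf2 rose (0.47, adjusted p = 0.0223). For each of these 6 lower genes, all 3 mutant libraries were below every control, as in 22.1% of all genes tested. The 6 were picked by their calls, which favour groups without overlap. Their difference from Hsp90b1, Calr and Pdia4 is therefore only a description.

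Other genes of the folding list did not pass. Serpinh1, the collagen chaperone HSP47, was at 1130, 1277 and 1195 CPM in controls and 896, 724 and 1016 CPM in mutants, with no overlap (-0.45, adjusted p = 0.0683). Canx, the membrane-bound relative of Calr, had a log2 fold change of -0.27 (95% interval -0.63 to 0.10), Hyou1 of -0.17 (-0.55 to 0.20), Pdia3 of -0.14 (-0.48 to 0.21) and P4hb of -0.07 (-0.39 to 0.25). Of these, Hyou1 and Pdia3 had the arrangement of Pdia4, Hsp90b1 and Calr, with mutant libraries 1 and 2 below every control and mutant library 3 not. The count of called genes in this list was 1 without control library 2 (4.57% of all genes called in that fit) and 1 without control library 3 (4.39%). It was 3 without control library 1 (13.5%) and 4 without mutant library 1 (12.2%). It was 2 with a replicate block (10.4%), 4 with the GC offset (14.3%) and 0 with both (6.66%). Without mutant library 3, 12 were called (25.2%). Of the 7 genes, Uggt2 lost its call in 1 of 17 alternatives and the others in 6 to 10 of them.

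In ER-associated degradation, 3 genes of 20 were called (beside 20.2% of all genes). Derl2, which forms part of the channel for export to the cytosol, fell from 37.3, 35.0 and 35.8 CPM to 25.7, 26.7 and 27.2 CPM (-0.44, adjusted p = 0.0128). Ube2g2, a ubiquitin-conjugating enzyme (0.38, adjusted p = 0.0249), and Ufd1, which acts with the p97 ATPase (0.30, adjusted p = 0.0388), rose. Edem1 (-0.45, adjusted p = 0.0567) and the ubiquitin ligase Syvn1 (0.28, adjusted p = 0.0596) did not pass, and neither did its partner Sel1l (-0.23, 95% interval -0.56 to 0.09). Syvn1 carries an ERSE, as do Hspa5, Hsp90b1 and Calr, and it was above every control in each mutant library. The calls of this list varied between alternatives. Derl2 lost its call in 7 of 17 alternatives, the GC offset among them, Ube2g2 in 9 and Ufd1 in 8. The list held 0 higher and 3 lower genes with library size alone (19.2% of all genes called in that fit) and 1 and 0 with the GC offset (14.3%). It held 0 called genes with the replicate block (10.4%), without control library 2 (4.57%) or without control library 3 (4.39%). Without mutant library 1, 1 gene was called (12.2%). Without control library 1 (13.5%) or with no filter on low counts (12.3%), 1 was higher and 1 lower.

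Of 31 genes of translocation and ER trafficking, 3 rose and 1 fell (12.9% called, beside 20.2% of all genes). Sec61g, a subunit of the translocation channel, rose from 0.823, 1.13 and 1.28 CPM to 7.42, 9.13 and 8.35 CPM (log2 fold change 2.94, adjusted p = 0.000109). Of its 75-base stretches, 13.7% occur in other annotated genes, so its count is uncertain. Ssr4 (0.85, adjusted p = 0.00588), of the translocon-associated complex, and Dad1 (0.37, adjusted p = 0.0380), a subunit of oligosaccharyltransferase, rose, and Spcs3 (-0.42, adjusted p = 0.0242), of the signal peptidase, fell. Sec61g and Ssr4 were called in all 17 alternatives. Dad1 lost its call in 9 of them, and Spcs3 in 9, where its adjusted p reached 0.723. With the GC offset the list held 4 higher and 0 lower genes (14.3% of all genes called in that fit). It held 2 higher and 0 lower without control library 1 (13.5%), control library 2 (4.57%), control library 3 (4.39%) or mutant library 1 (12.2%). Without mutant library 3 it held 2 higher and 4 lower (25.2%).

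In the list of the PERK-ATF4 arm and the integrated stress response, 5 of 28 genes were called (17.9%, beside 20.2% of all genes), 2 higher and 3 lower. The enzymes of serine synthesis, known targets of ATF4, moved in opposite directions. Phgdh rose from 30.3, 20.7 and 21.6 CPM to 48.0, 50.2 and 42.9 CPM (0.96, adjusted p = 0.00670), although 35.8% of its 75-base stretches occur in other annotated genes. Psat1 fell from 19.8, 24.2 and 23.5 CPM to 12.0, 11.2 and 10.7 CPM (-0.995, adjusted p = 0.00175). Slc7a5, an amino acid transporter, rose (0.60, adjusted p = 0.00685), and the secreted glycoprotein gene Stc2 (-0.87, adjusted p = 0.0148) and Eif2s1, which encodes eIF2α (-0.37, adjusted p = 0.0301), fell. Psat1 and Phgdh were called in all 17 alternatives, Slc7a5 lost its call in 3, Stc2 in 2 and Eif2s1 in 9, where its adjusted p reached 0.668. Without control library 2 (4.57% of all genes called) or control library 3 (4.39%), 1 gene of the list was higher and 1 lower. Asns, a target of ATF4 that makes asparagine, had a log2 fold change of 0.25 (95% interval -0.04 to 0.54), Chac1 of 0.03 (-0.43 to 0.48) and Atf3 of 0.16 (-0.35 to 0.67). Ppp1r15a, which encodes GADD34 and reverses eIF2α phosphorylation, had a log2 fold change of 0.17 (95% interval -0.05 to 0.40), and Ppp1r15b of -0.22 (95% interval -0.52 to 0.08).

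**Figure D4:**
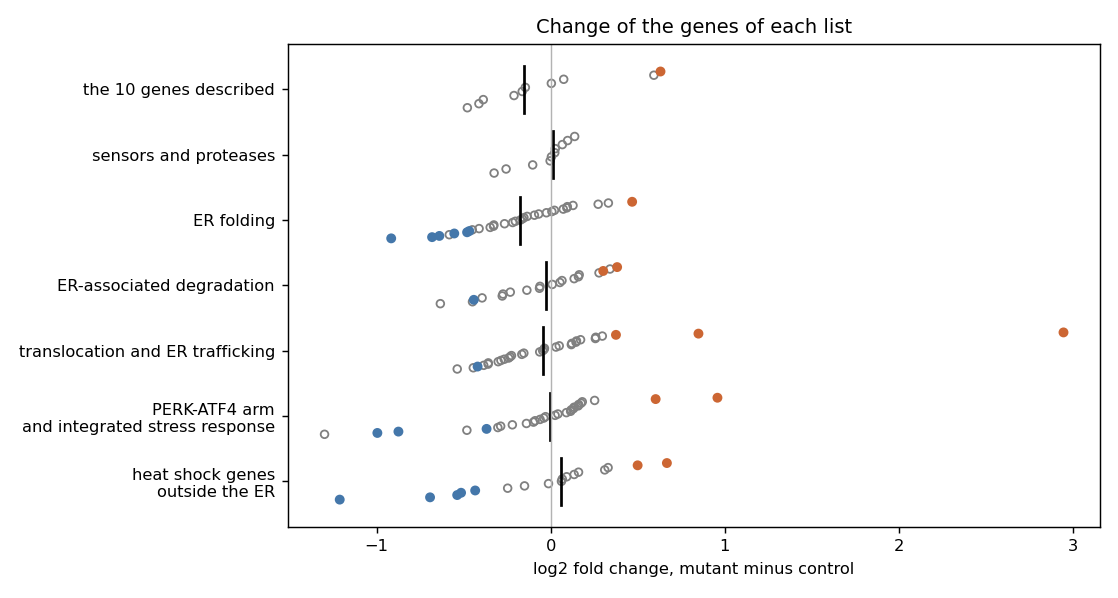
Log2 fold change (mutant minus control) of every gene in each list, with genes called higher (orange) or lower (blue) filled, genes not called open, and the median of each list as a vertical bar; genes are spread vertically within a list for display. The 10 genes described hold 1 called gene, the ER folding list 1 higher and 6 lower, and the sensors none.

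Genes that carry an ERSE in the RefSeq promoter were described together, since the element did not use expression. Of 37 such genes, 28 were in the count table and 20 were tested, Hspa5, Hsp90b1 and Calr among them. 1 was called higher and 2 lower (Pdia6 and Dnajc3), 3 of 20 in all, beside 20.2% of all genes. For 8 of the 20 every mutant library was below every control, beside 22.1% of all genes, and for 3 every mutant library was above, beside 22.6%. The count of lower genes was 0 with the replicate block (5.18% of all genes called lower in that fit) and without mutant library 1 (5.71%). It was also 0 without control library 2 (2.17%) and without control library 3 (2.08%). It was 1 without control library 1 (7.0%) or with no filter on low counts (5.93%), and 6 without mutant library 3 (12.5%). The gene called higher, Gm6566, was named after its values were seen. The median log2 fold change of the 20 genes was -0.28, and it was -0.16 with the GC offset and -0.37 without mutant library 3.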

How the data were processed

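Single-end reads of 75 cycles were aligned to mm10, with TopHat 2 according to the methods and with STAR 2.6.1d and Partek according to the submitters' processing notes. The authors deposited estimated counts per gene, 47.3% to 48.6% of them whole numbers in each library. The summed estimated counts of the 6 libraries exceed the read total in the methods, and the cause was not tested. The counting program, annotation and use of strand are not given in the sources used here. A deposited table of normalized signal and 6 columns of other samples were not used.

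Estimated counts were rounded. Genes were kept by filterByExpr (19330 of 27506), scaled by TMM and compared with edgeR 4.0.16 (quasi-likelihood, no block, Benjamini-Hochberg adjustment over all genes) in R 4.3.3. The fit was also run on simulated counts in which 200 genes changed 2-fold. At an adjusted p under 0.05 it recovered 58% of them, and 10.8% of its calls were false. The simulated counts had no GC trend, equal dispersion in both groups and few changed genes, while 20.2% of the real genes were called. These rates therefore describe the simulation and may differ in the real data. DESeq2 1.42.0, limma 3.58.1 (voom), other scalings and filters, offsets for GC content and length, a replicate block and leaving out each library were alternatives. The offset with length and that without mutant library 3 were added after the data were seen. Coordinates and 75-base stretches came from GENCODE M21, which matched 27484 genes, and promoters from RefSeq. TPM used union exon lengths.

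The 10 genes and the lists were chosen with earlier results of these data known. Named genes are the 10, Ror2, the 4 smallest p-values per list, 18 chosen regulators and chaperones, and genes sharing sequence with the 10. Other called genes of a list were named after their values were seen.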

Additional observations from a re-analysis of the deposited data

How the results depend on the processing

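Among 1012 fold changes of 59 named genes under up to 18 alternatives, 842 kept their side of the threshold, 147 lost a call, 23 gained one and 0 reversed. Of the 10 genes, 6 changed call in some alternative; the signs of Dnajb9, Xbp1 and Trib3, which were never called, varied. The count of the 10 called (1) was 2 with DESeq2, both higher (5410 of 19316 genes called in that fit), 0 with the GC offset and replicate block together, none higher (6.66% of all genes), and 3 with the GC offset without mutant library 3, of which 2 were lower. Leaving out single libraries gave 0 to 5 called, against 4.39% to 25.2% of all genes in those fits. Of these, 0 to 1 were higher, against 2.31% to 12.7% of all genes, and 0 to 4 lower, against 2.08% to 12.5%. Counting over all genes, 3906 were called, and leaving out single libraries gave 872 to 5001. Of the 137 pathway genes, 26 were called, 40 with DESeq2, 16 with the GC offset, 16 with the GC and length offset, and 6 to 36 when single libraries were left out. The cause of these shifts was not tested. Trib3 did not pass the stricter filter, and its low counts limit it at this depth.

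The replicate block used the sample index shared by both groups. Deviations from the group means of libraries with the same index correlated at -0.10, -0.080 and -0.0038, and those of control library 1 and mutant library 2 at 0.10. With 3 libraries per group, these correlations cannot decide whether the index pairs the libraries. With the block, 2013 genes overall and 11 pathway genes were called, and with the block and the GC offset 1288 and 8. Atf4 was called with the block (adjusted p = 0.0356) and not with the block and GC offset (0.0788), and the block changed no other call among the 10.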

Other observations

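Heat shock genes outside the ER, a list of cytosolic chaperones with the mitochondrial Hspd1 and Hspe1, held 7 called genes of 17 (41.2%), beside 20.2% of all genes tested, 2 higher and 5 lower, with a median log2 fold change of 0.06. The 2 cytosolic HSP90 genes moved in opposite directions. Hsp90ab1, the constitutive form, rose from 783, 712 and 730 CPM to 1045, 1011 and 1087 CPM (log2 fold change 0.50, adjusted p = 0.0222). Hsp90aa1, the inducible form, fell from 101, 103 and 107 CPM to 59.7, 59.4 and 72.9 CPM (-0.69, adjusted p = 0.00552), but 42.8% of its 75-base stretches occur in other annotated genes. Hspe1, the mitochondrial co-chaperonin, rose (0.67, adjusted p = 0.0129), and Dnaja1 (-0.43, adjusted p = 0.0170), Hspa4l (-0.54, adjusted p = 0.0338), Hspa4 (-0.51, adjusted p = 0.0365) and Hsph1 (-1.21, adjusted p = 0.0429) fell. For Hspe1 14.6% and for Dnaja1 18.4% of the 75-base stretches occur in other annotated genes, so the counts of both are uncertain. Hsph1, Hspa4 and Hspa4l encode HSP110-type exchange factors, and Hsph1 was at 32.3, 40.0 and 38.7 CPM in controls and 9.74, 11.3 and 26.8 CPM in mutants. The count was 1, a lower gene, without control library 2 (4.57% of all genes called in that fit) or control library 3 (4.39%). It was 1 higher and 1 lower without mutant library 1 (12.2%) and 2 and 3 without control library 1 (13.5%). With the replicate block (10.4%) it was 1 and 2, and with the GC offset (14.3%) 2 and 1. Hsp90aa1 was called in all 17 alternatives, Hspe1 lost its call in 2, Hsp90ab1 in 6, and the other 4 genes in 7 or 8 of them. Hspa1a differed by 0.33 on the log2 scale (adjusted p = 0.0605) and Hspa1b by -0.01 (adjusted p = 0.953), and these near-identical genes share 61.7% and 55.8% of their stretches with others, so their counts are uncertain.

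The summed CPM of the 17 heat shock genes was 1837 to 2052 in controls and 1972 to 2376 in mutants, with overlap. The summed CPM of the 31 ER folding genes was 5512 to 5810 in controls and 4925, 4267 and 5527 in mutant libraries 1, 2 and 3, so that mutant library 3 was again within the range of the controls.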
